A study of Mus musculus with 24 samples.

Results

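Isg15, Usp18, Uba7, Ube2l6 and Herc6, the genes for the ubiquitin-like modifier ISG15 and for the enzymes that attach it to proteins or remove it, were described in macrophages (BMDMs) and dendritic cells (BMDCs) grown from mouse bone marrow and treated with the STING agonist DMXAA. The members were chosen by name, as the rows of the gene table with these symbols, and made up 5 of the 54532 genes listed. ISG15 is made after interferon signalling and is joined to target proteins by a cascade that resembles ubiquitination: UBA7 is the activating enzyme (E1), UBE2L6 (UBCH8) the conjugating enzyme (E2) and, in the mouse, HERC6 the main ligase (E3). USP18 cleaves ISG15 from its targets and, apart from that activity, binds the interferon receptor subunit IFNAR2 and dampens further signalling. STING, encoded by Tmem173, is the adaptor through which cytosolic DNA sensing leads to IRF3 activation and type I interferon, and DMXAA binds mouse STING directly.

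The study sequenced polyA RNA from 24 libraries in 8 groups of 3, which crossed cell type (BMDM or BMDC), genotype label (WT or CRE) and treatment (control or DMXAA, at 40 µM in the series' design text; the study's methods give its doses in mass per volume, so the concentration is uncertain). The WT label stands for Tmem173 fl/fl mice and the CRE label for Tmem173 fl/fl mice that also carry a tamoxifen-inducible Lyz2-driven Cre. Cells of both labels thus come from mice with the floxed alleles. The study injected mice of both genotypes with tamoxifen, but its description of these cultures did not state this for the donors. Lyz2 drives the recombinase in myeloid cells, and the share of recombined cells in these cultures was not given. BMDMs were grown in L929-conditioned medium and BMDCs in GM-CSF with IL-4. The labels did not say whether the 3 replicates of a group came from separate animals or cultures, so that p-values measure only the spread between libraries, which may be technical. The time in DMXAA and the age of the donor mice were not given in the labels.

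The members lay on separate chromosomes apart from Usp18 and Herc6. On GRCm38, Isg15 (ENSMUSG00000035692) lay at chr4:156199424-156200818 on the minus strand, Usp18 (ENSMUSG00000030107) at chr6:121245906-121270917 on the plus strand, Uba7 (ENSMUSG00000032596) at chr9:107975505-107984060 on the plus strand, Ube2l6 (ENSMUSG00000027078) at chr2:84798828-84810335 on the plus strand and Herc6 (ENSMUSG00000029798) at chr6:57581000-57664632 on the plus strand. Few reads were assigned to a near copy or to overlapping genes: a processed pseudogene of Isg15 (AC151275.1) had at most 3 reads in any library, and the genes that overlap Usp18 (Gm44148), Uba7 (Gm20661) and Herc6 (Gm45193) at most 13, 23 and 0, while the library kit did not mark strand. RefSeq (GRCm38.p6) gave a promoter for 4 of the 5 members. The 250 bases before the start were searched on either strand for the core of the interferon-stimulated response element, GAAANNGAA, the sequence bound by ISGF3 and by IRF factors. This core was present in 7.12% of 32817 promoters of that length. Isg15 held 3 overlapping matches to the response element core, which began 78, 72 and 66 bases before the start. It was not matched in the windows of Uba7, Ube2l6 or Herc6, which says only that these letters were not in these windows. The window of Isg15 (chr4:156200819-156201068, minus strand) is shown for its matches, and those of Ube2l6 (chr2:84798578-84798827, plus strand) and Herc6 (chr6:57580742-57580991, plus strand) for comparison, 5′ to 3′ with matches to the response element core in capitals.
Isg15: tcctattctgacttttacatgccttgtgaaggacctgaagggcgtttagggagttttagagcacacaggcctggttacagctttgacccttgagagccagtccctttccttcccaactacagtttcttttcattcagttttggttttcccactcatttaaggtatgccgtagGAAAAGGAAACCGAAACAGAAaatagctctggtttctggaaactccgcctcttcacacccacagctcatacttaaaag
Ube2l6: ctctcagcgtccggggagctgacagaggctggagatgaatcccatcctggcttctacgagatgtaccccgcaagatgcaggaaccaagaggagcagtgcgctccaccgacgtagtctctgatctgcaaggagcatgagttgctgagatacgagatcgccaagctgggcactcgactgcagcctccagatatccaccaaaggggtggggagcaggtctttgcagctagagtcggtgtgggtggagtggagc
Herc6: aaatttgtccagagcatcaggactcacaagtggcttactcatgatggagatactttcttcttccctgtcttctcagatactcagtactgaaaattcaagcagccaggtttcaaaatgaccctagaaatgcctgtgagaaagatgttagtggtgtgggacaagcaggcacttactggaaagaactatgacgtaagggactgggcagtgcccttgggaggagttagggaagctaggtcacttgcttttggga

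Total counts per library were 15657347 to 18912887. Markers of the labelled cell types divided the BMDM libraries: in the libraries numbered 1 and 2 the median of 9 macrophage genes (Lyz2, Csf1r and Adgre1 among them) was 752 to 1029 CPM and that of 6 leukocyte genes (Ptprc among them) 498 to 586 CPM, whereas in the 4 libraries numbered 3 these medians were 0.582 to 1.39 and 0.0298 to 0.370 CPM. In those same 4 libraries the median of 9 fibroblast genes (Col1a1 and Pdgfra among them) was 1451 to 1947 CPM, against 1.52 to 39.2 CPM in the other BMDM libraries and 0.733 to 6.03 CPM in BMDCs. The BMDM libraries numbered 3 therefore went against their label and are given apart throughout, and all BMDM tests rest on 2 libraries a group. WT-labelled BMDMs of replicate 2 had a fibroblast sum of 896 (control) and 751 CPM (DMXAA) over those 9 genes, against 62.6 to 125 CPM in the other 6 tested BMDM libraries. BMDCs had a median of 27.3 to 73.3 CPM over 9 dendritic cell genes, none of them at 0, and 64.6 to 173 CPM over the macrophage genes. In bulk libraries a smaller share of cells of a type and less RNA per cell cannot be told apart. The targeted transcript, Tmem173, was read in every library: 9.91 and 14.7 FPKM in WT-labelled control BMDMs, 22.8 and 31.8 with DMXAA, and 8.76 to 10.4 FPKM over the 4 CRE-labelled BMDM libraries, while in BMDCs WT-labelled libraries had 28.8 to 55.3 and CRE-labelled libraries 19.7 to 36.8 FPKM. The CRE label was lower only in DMXAA-treated BMDMs by the test (log2 fold change −1.47 ± 0.24, SE; adjusted p = 0.0074), and since the gene total includes exons that a floxed allele may keep, it does not check the labels.

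In BMDCs all 5 members rose with DMXAA under either genotype label, from a ratio of group means of 8.09 for Uba7 to 946 for Isg15, both under the WT label. The background was 17% of 12126 genes higher in WT-labelled and 14% in CRE-labelled BMDCs (edgeR quasi-likelihood test, Benjamini-Hochberg adjusted p under 0.05 over all genes). Each of the 5 also passed the low-value filter (at least 1 FPKM, the fragment count scaled for gene length and library size, in 3 libraries) on the control libraries alone. Isg15, the modifier itself, was read at 2.92, 2.90 and 2.49 FPKM in WT-labelled controls and at 3183, 2355 and 2321 FPKM with DMXAA. In the CRE-labelled cells it was at 1.88, 2.66 and 3.54 FPKM without and 2153, 2307 and 2575 FPKM with the agonist. The lowest treated library thus stood far above the highest control, and the treated libraries of the labels overlapped. The log2 fold change of Isg15 was 9.85 ± 0.29 (SE, adjusted p = 7.1e-09) in WT-labelled and 9.74 ± 0.29 (adjusted p = 7.8e-09) in CRE-labelled BMDCs. These folds rest on 29 to 50 Isg15 reads per control library, the fewest of any member in BMDCs.

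Usp18, the ISG15 protease, went from 7.50, 5.82 and 4.62 FPKM to 506, 615 and 507 FPKM in WT-labelled BMDCs. In CRE-labelled BMDCs the controls had 5.12, 12.3 and 7.04 FPKM and the treated libraries 488, 506 and 631 FPKM. Control replicate 2 of the CRE label was the highest resting value of this gene in the series, and still no control came near a treated library. That replicate number also had the highest sums of 7 neutrophil genes, 349 and 162 CPM without and with DMXAA against 7.13 to 23.1 CPM in the other BMDCs. It had the lowest sums of the macrophage genes as well, 2168 and 2046 against 5961 to 8955 CPM. The medians of the macrophage genes were 64.6 and 107 CPM, against 75.4 to 173 CPM in the other BMDCs. By the median its treated library was thus not set apart. The part of either list in its values was not tested. Usp18 rose by 6.48 ± 0.36 on the log2 scale with the WT label (adjusted p = 4.2e-07) and by 6.03 ± 0.35 with the CRE label (adjusted p = 6.9e-07).

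The enzymes of conjugation had smaller fold changes in BMDCs than Isg15 and Usp18. Ube2l6, the E2, was at 20.9, 17.6 and 16.04 FPKM in WT-labelled control BMDCs and at 228, 174 and 164 FPKM after DMXAA. With the CRE label it was at 17.6, 24.4 and 17.3 FPKM and then 148, 198 and 189 FPKM. On the FPKM scale it was the most abundant member in resting cells of either type. Ube2l6 rose by 3.35 ± 0.20 (adjusted p = 7.7e-07) and 3.14 ± 0.20 on the log2 scale (adjusted p = 1.1e-06) in WT- and CRE-labelled BMDCs. Uba7, the E1, rose from 2.86, 5.33 and 5.37 to 26.4, 37.5 and 45.8 FPKM with the WT label, and from 5.47, 2.17 and 4.53 to 50.4, 20.5 and 38.9 FPKM with the CRE label. Its control and treated ranges did not overlap, although the treated libraries spread more widely than those of any other member. The same replicate numbers were low before and after treatment, replicate 1 of the WT label and replicate 2 of the CRE label. Uba7 had a log2 fold change of 2.99 ± 0.44 (adjusted p = 0.00043) in WT-labelled and 3.15 ± 0.44 (adjusted p = 0.00042) in CRE-labelled BMDCs.

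Herc6, the ligase, was close to 1 FPKM at rest in BMDCs, with 1.57, 1.25 and 1.07 FPKM under the WT and 1.14, 1.77 and 1.01 FPKM under the CRE label. DMXAA brought it to 28.5, 40.7 and 36.5 FPKM and to 38.1, 27.2 and 38.8 FPKM. The treated libraries of the labels overlapped and lay well clear of all controls. Herc6 rose by 4.75 ± 0.28 (adjusted p = 7e-07) and by 4.71 ± 0.28 on the log2 scale (adjusted p = 8.3e-07).

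**Figure D1:**
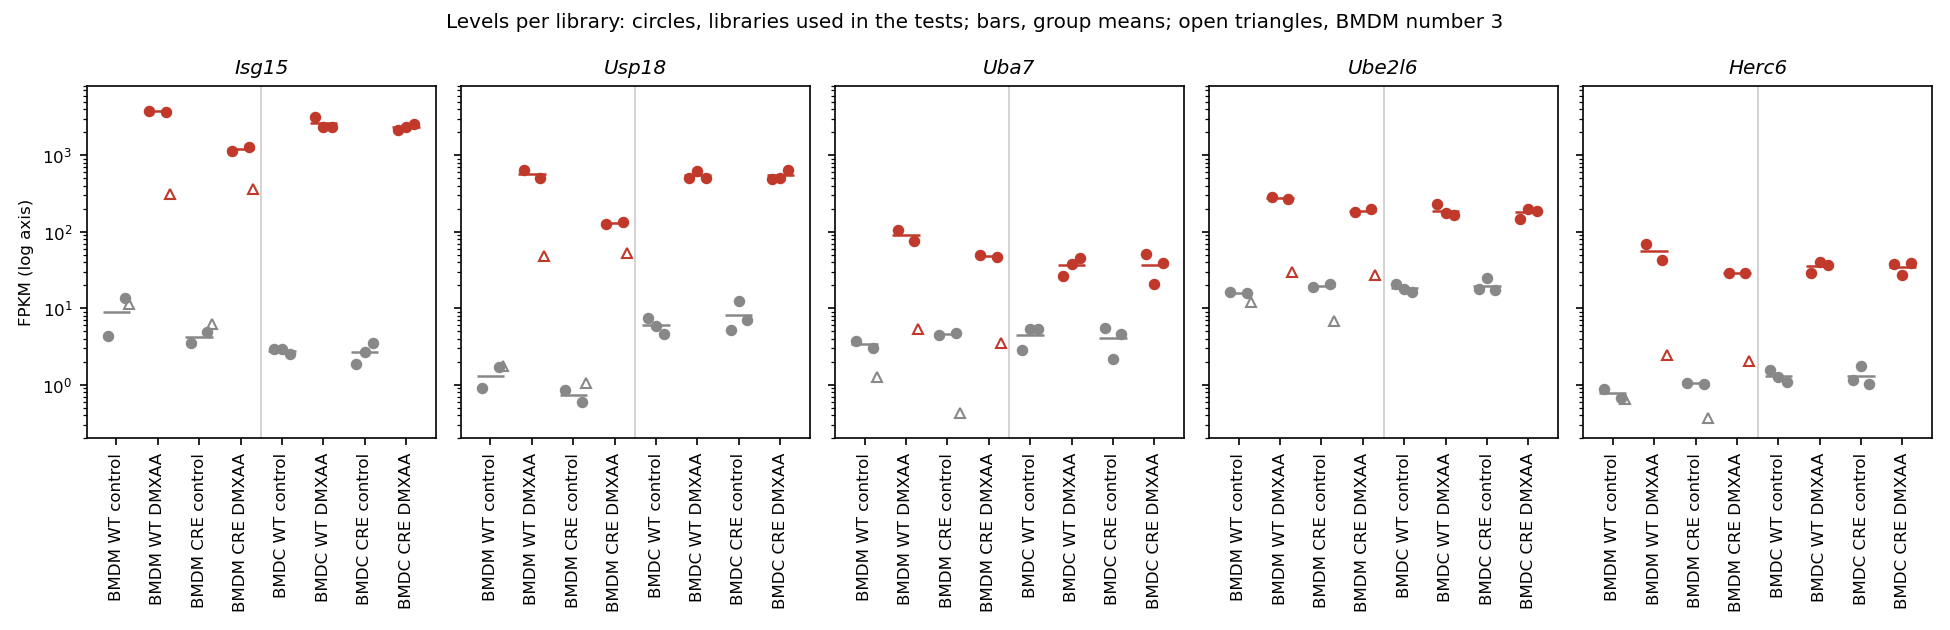
FPKM (log axis) of the 5 ISG15 genes in each library of the 8 groups; circles are the libraries used in the tests, short bars their mean and open triangles the BMDM libraries numbered 3. In each gene the treated circles stand above all control circles of that cell type, CRE-labelled treated BMDMs stand below WT-labelled ones, and in BMDCs the labels overlap.

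In BMDMs the 5 members were again higher with DMXAA in every library of either label. On the FPKM scale WT-labelled treated BMDMs had the highest group mean in the series for each member. They were clear of the BMDC libraries for all but Usp18 (568 FPKM, against 543 in WT-labelled BMDCs). In CPM, scaled by total counts alone, Usp18 was no longer highest there, at 1225 and 1068 against 1126 to 1507 in treated BMDCs. Herc6, at 447 and 309 CPM against 211 to 325, was then not clear of the BMDCs. The background was 18.7% of 10938 genes higher in WT-labelled and 7.93% in CRE-labelled BMDMs. Usp18 and Herc6 passed the low-value filter only through the treated libraries and so had to differ if they were to be tested at all; 3 of the 5 passed on controls alone. Isg15 was at 4.34 and 13.5 FPKM in WT-labelled control BMDMs and at 3753 and 3678 FPKM with DMXAA. In CRE-labelled BMDMs it went from 3.55 and 4.87 to 1135 and 1263 FPKM. The controls of the 2 labels overlapped, and the treated libraries did not. Isg15 had a log2 fold change of 8.59 ± 0.59 (adjusted p = 9e-05) with the WT label and 8.12 ± 0.59 (adjusted p = 0.00023) with the CRE label. Its WT-labelled controls were the least alike of any member, and the higher of them, replicate 2, was the control library with the fibroblast sum of 896 CPM, whose part in this value was not tested.

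Usp18 rose from 0.895 and 1.72 to 639.6 and 496 FPKM in WT-labelled BMDMs, a log2 fold change of 8.65 ± 0.40 (adjusted p = 1.7e-05). In CRE-labelled BMDMs it rose from 0.862 and 0.596 to 125 and 133 FPKM, a log2 fold change of 7.45 ± 0.38 (adjusted p = 6e-05). Its CRE-labelled treated libraries lay below every treated BMDC and WT-labelled BMDM library. Ube2l6 was at 16.2 and 15.8 FPKM at rest and at 280.0 and 263 FPKM with DMXAA in WT-labelled BMDMs, and at 19.0 and 20.5 and then 180.0 and 197 FPKM in CRE-labelled BMDMs. Its resting levels were higher with the CRE label and its treated levels lower. The log2 fold changes were 3.98 ± 0.13 (adjusted p = 4.9e-06) and 3.23 ± 0.12 (adjusted p = 2e-05).

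Uba7 went from 3.74 and 3.02 to 104 and 76.2 FPKM with the WT label and from 4.495 and 4.71 to 49.2 and 46.0 FPKM with the CRE label. As with Ube2l6, the CRE-labelled cells started higher and ended lower. Uba7 rose by 4.63 ± 0.19 (adjusted p = 1.3e-05) and 3.35 ± 0.18 (adjusted p = 7.7e-05) on the log2 scale. Herc6 was at 0.885 and 0.663 FPKM in WT-labelled and at 1.05 and 1.04 FPKM in CRE-labelled controls, and reached 70.0 and 43.1 FPKM and 28.5 and 28.7 FPKM. Its WT-labelled treated BMDM libraries had the largest SD of any group of this gene, and the lower of them was still above each CRE-labelled one. Herc6 rose by 6.09 ± 0.28 (adjusted p = 1.7e-05) and 4.75 ± 0.27 (adjusted p = 8.2e-05).

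**Figure D2:**
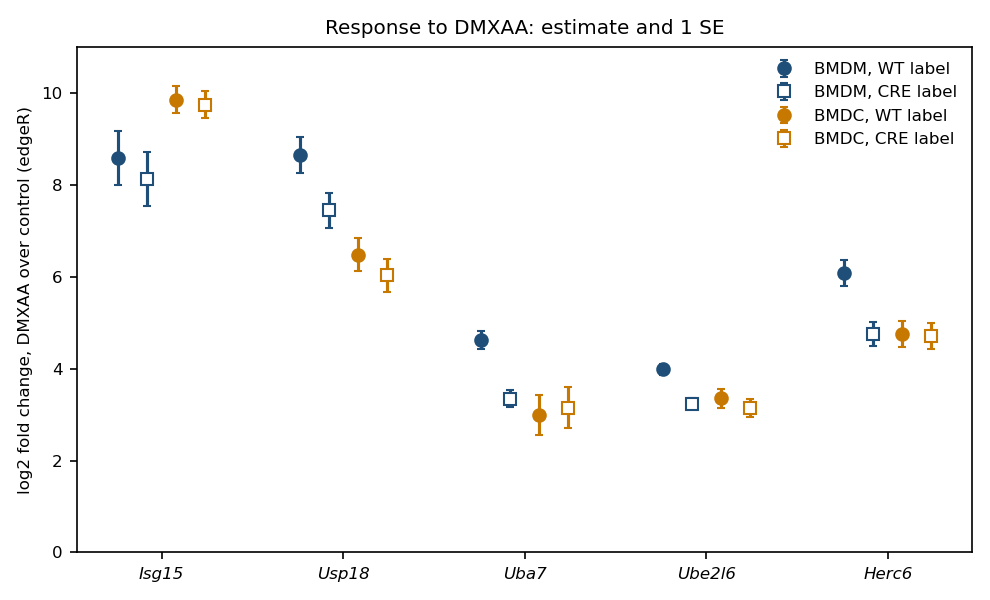
Log2 fold change of each ISG15 gene with DMXAA against control (edgeR estimate, bars 1 SE) in BMDMs (blue) and BMDCs (orange) of the WT (filled circle) and CRE label (open square). Isg15 lies between 8.12 and 9.85 in all 4 sets, Usp18 falls from 8.65 in WT-labelled BMDMs to 6.03 in CRE-labelled BMDCs, and Uba7 and Ube2l6 lie between 2.99 and 4.63.

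The comparison of CRE- with WT-labelled cells under DMXAA sets the treated levels of the labels against each other. Any difference at rest is part of it. In BMDMs all 5 members were lower with the CRE label, where the background was 10.3% of genes lower. Usp18 fell furthest, to 23.3% of the WT-labelled level (log2 fold change −2.10 ± 0.29, adjusted p = 0.0046), followed by Isg15 at 32.97% (−1.60 ± 0.43, adjusted p = 0.041). The conjugating enzymes were at higher shares of the WT-labelled treated level: Herc6 was at 51.8% (−0.95 ± 0.23, adjusted p = 0.029), Uba7 at 54.2% (−0.88 ± 0.17, adjusted p = 0.013) and Ube2l6 at 71.0% (−0.50 ± 0.11, adjusted p = 0.024). In every member both CRE-labelled treated libraries lay below both WT-labelled ones. The share of all genes that separated in this way was not counted, so this only describes the values. The summed macrophage markers were 10359 and 10577 CPM in the CRE-labelled and 12225 and 13937 CPM in the WT-labelled treated libraries. Their medians went the other way, 819 and 831 CPM with the CRE label and 792 and 752 CPM with the WT label. The summed dendritic cell markers were 578 and 549 CPM in the CRE-labelled and 185 and 274 CPM in the WT-labelled treated libraries, and 663 and 661 against 303 and 325 CPM in the controls. The medians of these genes were instead lower with the CRE label after DMXAA, at 1.29 and 0.767 against 8.20 and 8.17 CPM. In the controls the medians overlapped, at 0.590 and 0.744 against 0.275 and 1.16 CPM. The part of these markers in the difference was not tested. The treated cells of the CRE label thus held the protease and the modifier at the lowest share of the WT-labelled level and the E2 at the highest. The shares of the WT-labelled log2 response were ordered otherwise. They were 94.6% for Isg15, 86.1% for Usp18, 81.2% for Ube2l6, 78.1% for Herc6 and 72.3% for Uba7. The 5 calls rested on few libraries: without CRE-labelled DMXAA replicate 1 or replicate 2 none of the 5 passed, without WT-labelled DMXAA replicate 1 or either CRE-labelled control 2 passed, and without WT-labelled DMXAA replicate 2, 4 passed, in fits where the lone library left in a group was assumed to vary like the others. With libraries scaled by their totals alone, an alternative chosen after the data had been seen, which moved the median of all genes by 0.25 on the log2 scale, all 5 stayed lower and 3 passed, Isg15 (−1.35, adjusted p = 0.052) and Ube2l6 (−0.24, adjusted p = 0.14) being lost. When only the 4 treated libraries were fitted 3 passed, and with dispersions estimated from WT-labelled BMDMs only 0 passed.

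Without agonist, no member differed between the labels in BMDMs (0 of 5, where the background was 0.064% of genes, 7 in all). The estimates pointed in different directions: Isg15 was at −1.14 ± 0.49 (adjusted p = 0.71) and Usp18 at −0.90 ± 0.35 (adjusted p = 0.69), while Uba7 was at 0.40 ± 0.17 (adjusted p = 0.71), Ube2l6 at 0.25 ± 0.11 (adjusted p = 0.71) and Herc6 at 0.39 ± 0.24 (adjusted p = 0.79). With 2 libraries a group these differences could not be called, and the unadjusted 95% interval left out 0 for Usp18 alone (−1.73 to −0.07), with that of Isg15 at −2.30 to 0.03. Without WT-labelled control replicate 1 the count was 1 of 5.

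The interaction, the difference between the labels in the response itself, was called for Uba7 alone (−1.28 ± 0.24, adjusted p = 0.037), with a background of 4.22% of genes. Its log2 response in CRE-labelled BMDMs was 72.3% of that in WT-labelled BMDMs. Ube2l6 (−0.75 ± 0.16, adjusted p = 0.052), Herc6 (−1.33 ± 0.33, adjusted p = 0.079) and Usp18 (−1.20 ± 0.45, adjusted p = 0.19) had negative estimates that missed the threshold, and Isg15 was at −0.47 ± 0.65 (adjusted p = 0.74). For Isg15 the CRE-labelled cells kept 94.6% of the log2 response, with a 95% interval of the difference from −2.00 to 1.07. This value rested on single control libraries: without WT-labelled control replicate 2 the interaction of Isg15 was −1.56 and was called (adjusted p = 0.019), and without WT-labelled control replicate 1 it was 0.12 (adjusted p = 0.80). The Uba7 call was lost without either CRE-labelled control (adjusted p = 0.18 and 0.20), without either CRE-labelled DMXAA library (0.19 and 0.20) and without WT-labelled DMXAA replicate 1 (0.057), while its estimate stayed between −1.47 and −1.07. In those 5 fits 0 members were called, against 2, 4 and 3 without WT-labelled control replicate 1, control replicate 2 or DMXAA replicate 2, and 4 with DESeq2.

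**Figure D3:**
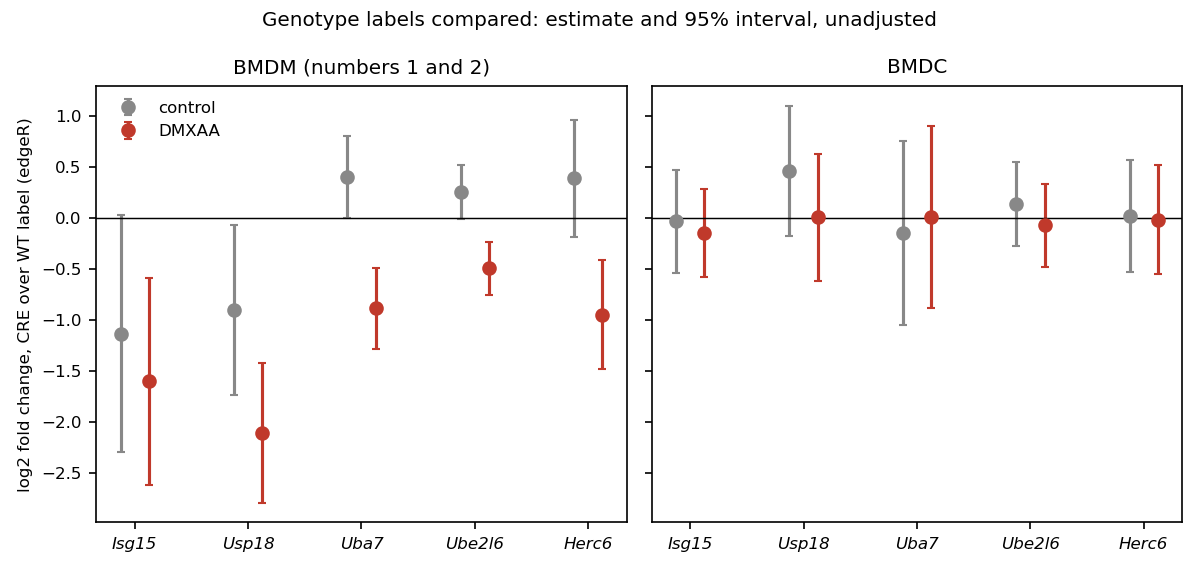
Log2 fold change of the CRE over the WT label for each ISG15 gene in control (grey) and DMXAA-treated cells (red), in BMDMs (left) and BMDCs (right), with unadjusted 95% intervals. In treated BMDMs the 5 estimates run from −2.10 for Usp18 to −0.50 for Ube2l6, and in BMDCs all intervals include 0.

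In BMDCs no member differed between the labels. Under DMXAA the CRE-labelled level was 90.4% of the WT-labelled level for Isg15, 95.1% for Ube2l6, 98.9% for Herc6, 100.5% for Usp18 and 100.5% for Uba7, with adjusted p = 1 for each (0 of 5, where the background was 0% of 12126 genes; 108 genes had an unadjusted p under 0.05 by edgeR and DESeq2 called 0). The 95% intervals of the log2 difference were −0.58 to 0.29 for Isg15, −0.62 to 0.63 for Usp18, −0.89 to 0.90 for Uba7, −0.48 to 0.34 for Ube2l6 and −0.55 to 0.51 for Herc6. That of Usp18 lay clear of the interval of the same difference in BMDMs (−2.79 to −1.42). That of Isg15 began at −0.581, just above the end of the BMDM interval (−2.62 to −0.585). Those of Herc6, Uba7 and Ube2l6 overlapped. The difference between the cell types in the effect of the label was not tested. In control BMDCs the estimates ran from −0.15 for Uba7 to 0.46 for Usp18 and none passed, with a background of 0% (99 genes at an unadjusted p under 0.05; DESeq2 called 0). None of the interactions passed either, with estimates from −0.45 for Usp18 to 0.15 for Uba7 and a background of 0% (60 genes at an unadjusted p under 0.05; DESeq2 called 1 gene, no member).

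The BMDM libraries numbered 3, which had few leukocyte and many fibroblast transcripts, also held more of every member after DMXAA. There is 1 library per group, so no test was made. In the WT-labelled pair Isg15 was at 11.4 and 313 FPKM without and with the agonist, Usp18 at 1.77 and 48.0, Ube2l6 at 11.9 and 30.05, Uba7 at 1.27 and 5.34 and Herc6 at 0.652 and 2.47 FPKM. The CRE-labelled pair had 6.25 and 363 FPKM of Isg15, 1.07 and 51.9 of Usp18, 6.72 and 27.1 of Ube2l6, 0.423 and 3.51 of Uba7 and 0.366 and 2.06 FPKM of Herc6. Each member rose by at least 1 on the log2(FPKM + 1) scale in each pair, as did 1.72% of 11623 genes in the WT-labelled and 1.89% in the CRE-labelled pair. The order of the fold changes, Isg15 and Usp18 far above the enzymes, was shared with the other libraries, but the treated levels were lower than in any other treated group. In the treated libraries numbered 3 the order of the labels varied by gene: CRE-labelled Isg15 was 1.16 times and Usp18 1.08 times the WT-labelled level, and Uba7 was 0.658, Herc6 0.835 and Ube2l6 0.902 times it. With all 12 BMDM libraries in the edgeR fit none of the 5 members passed in either DMXAA response, with WT-labelled log2 fold changes of 3.70 to 8.09 and adjusted p from 0.062 to 0.32, and none passed between the labels under DMXAA. With the replicate number kept as a block within each label as well, a fit added after the data had been seen, 3 passed in the WT-labelled and 2 in the CRE-labelled response. DESeq2 on all 12, also added then, called 5 of 5 in the WT-labelled and 4 of 5 in the CRE-labelled response (all but Uba7, adjusted p = 0.29).

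The cell types were compared within the WT label. At rest BMDCs held more Usp18 than BMDMs (log2 difference 2.18 ± 0.37, adjusted p = 0.00035) and less Isg15 (−1.70 ± 0.35, adjusted p = 0.0019), 2 of 5 members against a background of 28.6% of 12730 genes. Usp18 was at 4.62 to 7.50 FPKM in control BMDCs and at 0.895 and 1.72 FPKM in control BMDMs, with no overlap. The Isg15 difference rested on WT-labelled control BMDM replicate 2, at 13.5 FPKM: without it the estimate was −0.63 and did not pass (adjusted p = 0.14). Herc6 (0.74 ± 0.28, adjusted p = 0.060), Uba7 (0.42 ± 0.41) and Ube2l6 (0.18 ± 0.18) did not pass.

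With DMXAA, Uba7 (−1.26 ± 0.39, adjusted p = 0.022) and Ube2l6 (−0.50 ± 0.18, adjusted p = 0.045) were lower in BMDCs than in BMDMs of the WT label, 2 of 5 with a background of 31.3%. Neither held under every setting: the count was 1 with only the compared groups in the fit, and 0 with libraries scaled by their totals alone. It was also 0 without WT-labelled DMXAA BMDC replicate 2. Without WT-labelled DMXAA BMDM replicate 1, Uba7 was at −1.03 and Ube2l6 at −0.46. The Ube2l6 call was the less stable. Unlike that of Uba7, it was lost with no low-value filter (edgeR, adjusted p = 0.20) and with the replicate number as a block (0.079). It was also lost without WT-labelled control BMDC replicate 1, 2 or 3 (adjusted p = 0.056, 0.083 and 0.074). Isg15 (−0.48 ± 0.32, adjusted p = 0.28), Herc6 (−0.64 ± 0.26, adjusted p = 0.070) and Usp18 (−0.03 ± 0.32, adjusted p = 0.96) did not pass. By group mean the treated levels of Isg15 were ordered as WT-labelled BMDMs (3715 FPKM), WT-labelled BMDCs (2619.7 FPKM), CRE-labelled BMDCs (2345 FPKM) and CRE-labelled BMDMs (1199 FPKM). The BMDCs of the 2 labels overlapped, and CRE-labelled BMDMs lay below every library of the other treated groups. For Usp18, WT-labelled BMDMs and the BMDCs of either label could not be separated by their ranges (488 to 639.6 FPKM), and CRE-labelled BMDMs stood apart at 125 and 133 FPKM. By FPKM Ube2l6, Uba7 and Herc6 were highest in WT-labelled BMDMs. In CRE-labelled BMDMs they lay within the range of the BMDCs, with Ube2l6 at 180.0 and 197 FPKM against 148 to 228 FPKM.

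The response of Usp18 differed between the cell types (−2.21 ± 0.48 for BMDCs minus BMDMs, adjusted p = 0.019), 1 of 5 members with a background of 2.99% of genes. The resting level of Usp18 was higher in BMDCs, and the treated ranges overlapped. Isg15 had the opposite sign (1.22 ± 0.48, adjusted p = 0.24), and Herc6 (−1.38 ± 0.38, adjusted p = 0.066), Uba7 (−1.67 ± 0.57, adjusted p = 0.15) and Ube2l6 (−0.67 ± 0.26, adjusted p = 0.21) did not pass. The Usp18 call was lost without WT-labelled control BMDC replicate 1 (−1.96, adjusted p = 0.053), DMXAA BMDC replicate 1 (−2.08, adjusted p = 0.053), control BMDM replicate 1 (−1.77, adjusted p = 0.12) or DMXAA BMDM replicate 1 (−2.02, adjusted p = 0.094).

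The protease and the modifier were also set against each other within each library, as the ratio of their FPKM values, which are per length. In control BMDCs Usp18 exceeded Isg15, by 1.85- to 2.56-fold with the WT label and 1.99- to 4.63-fold with the CRE label. In control BMDMs the ratio was 0.127 and 0.206 with the WT label and 0.122 and 0.243 with the CRE label. The ranges of the cell types did not overlap at rest. After DMXAA the ratio was 0.159 to 0.261 and 0.219 to 0.245 in WT- and CRE-labelled BMDCs, 0.135 and 0.170 in WT-labelled and 0.106 and 0.110 in CRE-labelled BMDMs. Treatment thus brought the BMDCs from a surplus of Usp18 transcript to a surplus of Isg15 transcript, while in BMDMs Isg15 was in surplus before and after. The libraries numbered 3 had ratios of 0.143 to 0.171, within the range of the other BMDMs. In the 20 libraries other than those Isg15 stood at 0.343 to 4.46 times Uba7 at rest and at 23.1 to 121 times Uba7 after DMXAA, so that the ratio rose from control to treated libraries in all 4 sets without overlap. Usp18 was below Ube2l6 in every control library (ratio 0.0291 to 0.505), above it in treated BMDCs and WT-labelled BMDMs (1.89 to 3.53), and below it in CRE-labelled treated BMDMs (0.677 and 0.694).

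**Figure D4:**
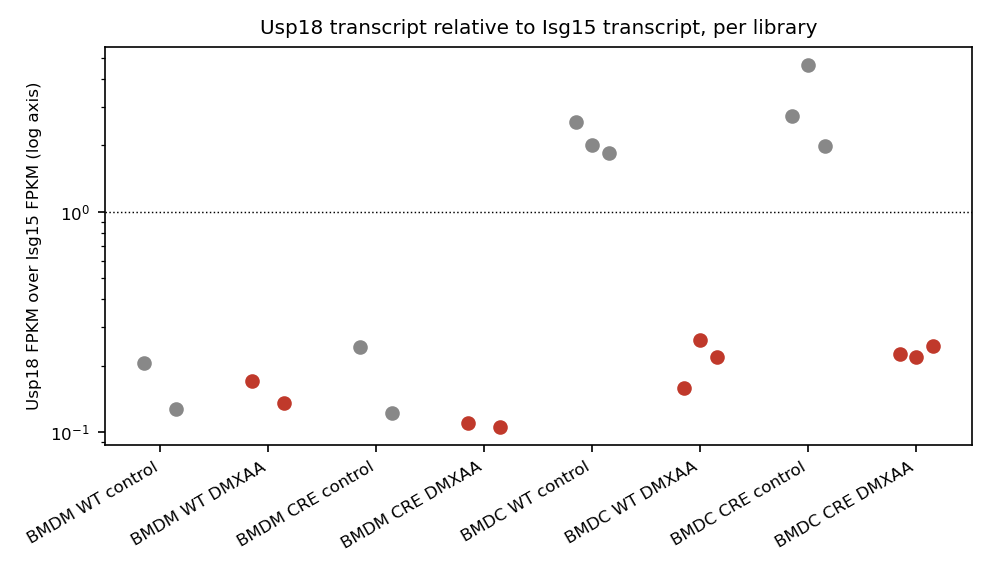
Ratio of Usp18 to Isg15 FPKM (log axis) in each library of the 8 groups, control in grey and DMXAA in red, without the BMDM libraries numbered 3; the dotted line marks equal FPKM. The control BMDCs lie above the line, at 1.85 to 4.63, and all other libraries below it, at 0.106 to 0.261.

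Other genes of the pathway were read from lists of named genes, to show which neighbouring steps moved with the cascade. Among 8 further factors reported to ligate or cleave ISG15, Trim25 (EFP, a ligase of ISG15 as well as of ubiquitin) rose in all 4 sets, by 2.51 ± 0.24 and 2.35 ± 0.23 in WT- and CRE-labelled BMDCs and by 2.59 ± 0.17 and 1.504 ± 0.16 in BMDMs (adjusted p = 2e-05, 3.5e-05, 7.1e-05 and 0.0018). Other factors of the list moved less: in WT-labelled BMDCs Usp14 fell by 0.50 and Usp16 rose by 0.40 on the log2 scale, and in WT-labelled BMDMs Usp2 (−1.33 ± 0.36) and Usp14 (−0.69 ± 0.11) fell, and no other member of the list passed (6 tested in BMDCs and 7 in BMDMs). The medians of the list were 0.09 and 0.07, against 0.01 and −0.08 over all genes. With libraries scaled by their totals alone Trim25 rose and Usp14 fell in the WT-labelled cells of either type, Usp5 fell as well, and Usp16 was not called.

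Of the interferon receptor and ISGF3 genes, where USP18 acts as an inhibitor, those that rose in WT-labelled BMDCs included Stat2 (3.79 ± 0.37), Irf9 (1.86 ± 0.20), Tyk2 (1.05 ± 0.33) and Ifnar2 (0.45 ± 0.11). In WT-labelled BMDMs Stat2 rose by 5.10 ± 0.38, Tyk2 by 2.55 ± 0.39, Irf9 by 2.36 ± 0.13 and Jak1 by 0.65 ± 0.12. With library totals alone Stat2 and Irf9 still rose in both, Tyk2 rose only in WT-labelled BMDMs, and the receptor chain Ifnar1, not called otherwise in any DMXAA response, fell in WT-labelled BMDMs. Between the labels under DMXAA in BMDMs Tyk2 (−1.53 ± 0.37, adjusted p = 0.031) and Irf9 (−0.73 ± 0.13, adjusted p = 0.0096) were lower with the CRE label, and Stat2 (−0.71 ± 0.32, adjusted p = 0.17) did not pass. The median of the 5 ISG15 genes was −0.95, against 0.01 over all genes. The integrin genes Itgal and Itgb2, whose product LFA-1 binds extracellular ISG15, were not called in any DMXAA response, except that Itgb2 fell in WT-labelled BMDMs with library totals alone, and Itgb2 was higher with the CRE label in treated BMDMs (1.05 ± 0.11, adjusted p = 0.0019).

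The parallel cascades offered a comparison of E1 with E1 and E2 with E2. Of 8 E1 genes for ubiquitin, NEDD8 and related modifiers, 2 rose and 3 fell in WT-labelled BMDCs, with Uba6 highest at 1.14 ± 0.18 and Atg7 lowest at −1.01 ± 0.16, and the same was counted in CRE-labelled BMDCs. Over all 12126 genes 2056 rose and 1848 fell in WT-labelled BMDCs, and 1702 and 1382 in CRE-labelled BMDCs. In WT-labelled BMDMs Uba1 rose (0.60 ± 0.15) and Atg7 (−0.75 ± 0.12), Uba2 (−0.66 ± 0.14) and Sae1 (−0.65 ± 0.16) fell, where 2041 of 10938 genes rose and 2374 fell. None reached the response of Uba7, the ISG15 E1. Of 10 other E2 genes 6 rose in BMDCs of either label, and 7 in WT-labelled and 0 in CRE-labelled BMDMs, with a median of 0.50 in WT-labelled BMDCs and 0.76 in WT-labelled BMDMs. The backgrounds of genes that rose were 17% and 14% in WT- and CRE-labelled BMDCs and 18.7% and 7.93% in BMDMs. The largest were Ube2f (1.39 ± 0.17), Ube2e1 (0.83 ± 0.16) and Ube2d1 (0.75 ± 0.17) in WT-labelled BMDCs and Ube2e1 (1.71 ± 0.22), Ube2d1 (1.30 ± 0.19) and Ube2d3 (0.86 ± 0.14) in WT-labelled BMDMs, all under the 3.35 and 3.98 of Ube2l6. These small changes depended on the scaling: with library totals alone, which moved the median of all genes to −0.36 in WT-labelled BMDCs and −0.60 in WT-labelled BMDMs, 2 of the 10 E2 genes rose in BMDCs, and 3 rose and 1 fell in BMDMs, and of the E1 genes 1 rose and 4 fell in BMDCs and 5 fell in BMDMs, while the 5 ISG15 genes rose as before. Under DMXAA in BMDMs 5 of the 10 E2 genes were lower with the CRE label (Ube2d1, Ube2e1, Ube2m, Ube2f and Ube2z, −0.92 to −0.58), against 10.3% of all genes. With library totals alone 2 of them were lower.

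Of the modifiers themselves, Ubd (FAT10, a further interferon-inducible ubiquitin-like protein) rose by 3.86 ± 1.13 in WT-labelled BMDCs, where Rps27a fell by 1.37. The 4 other HERC genes tested, Herc1 to Herc4, were not called in any DMXAA response, although with library totals alone Herc4 fell in WT-labelled BMDCs and Herc2 in WT-labelled BMDMs. Of interferon-inducible proteins that are known to carry ISG15, Ifit1 (11.12 ± 0.25), Ifih1 (5.48 ± 0.21) and Mx1 (5.15 ± 0.45) rose in WT-labelled BMDCs, and Mx1 (11.09 ± 0.33), Ifit1 (10.45 ± 0.54) and Ifih1 (6.28 ± 0.31) in WT-labelled BMDMs. Irf3, the transcription factor downstream of STING, fell in WT-labelled BMDCs (−0.59 ± 0.15). Under DMXAA in BMDMs the CRE-labelled cells had less Ifit1 (−2.28), Mx1 (−1.94), Ifih1 (−1.67) and Ddx58 (−1.23).

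**Figure D5:**
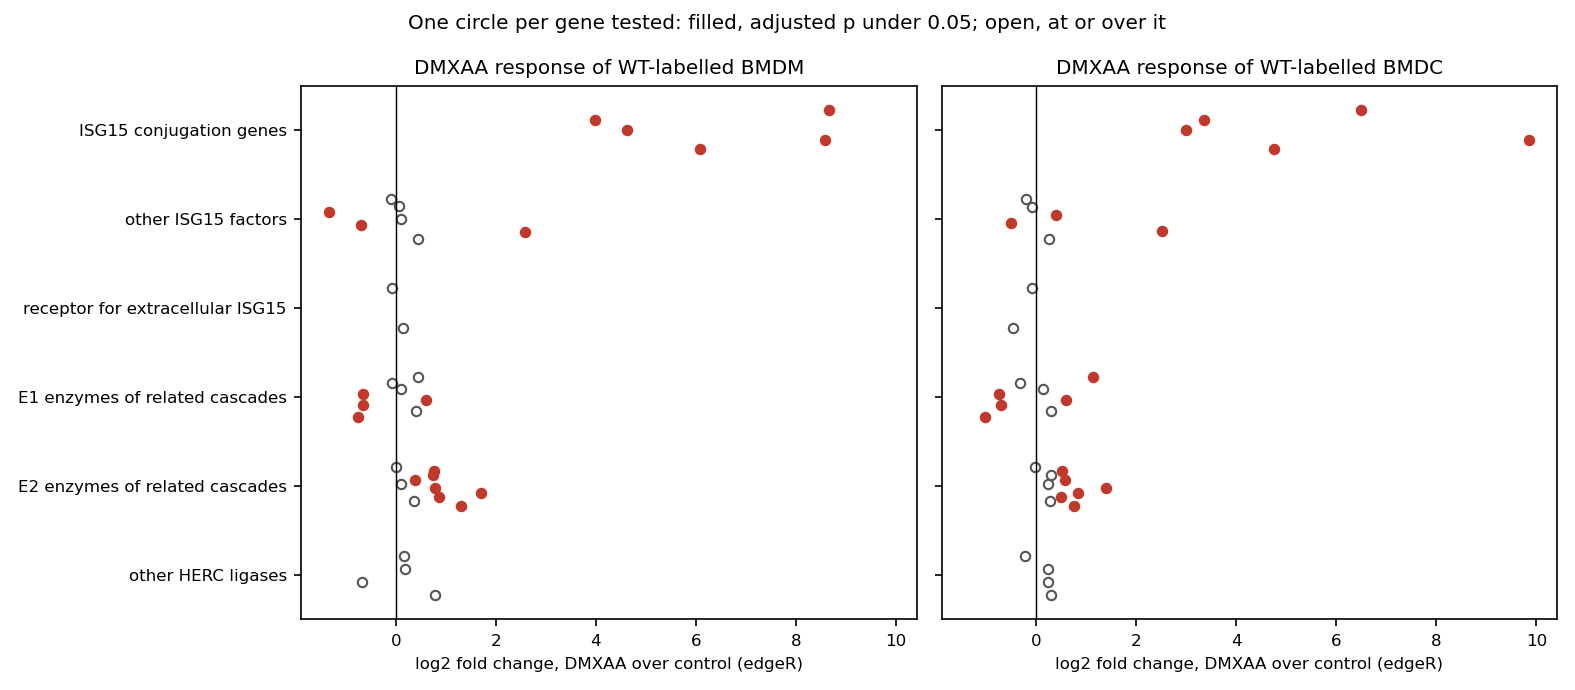
Log2 fold change with DMXAA (edgeR) in WT-labelled BMDMs (left) and BMDCs (right) of each gene tested in 6 of the lists; filled circles had an adjusted p under 0.05. The 5 ISG15 conjugation genes lie between 2.99 and 9.85, the E1 and E2 genes of related cascades between −1.01 and 1.71.

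Last, the genes whose level followed each member most closely were found by the root mean square difference of log2(FPKM + 1), centred on each gene's mean, over the 20 libraries without the BMDM number 3 and over 12730 genes; it measures the likeness of the profiles and carries no test, and the libraries share their treatment groups. Ifit1 (0.355) and Ifit2 (0.561), both tetratricopeptide proteins induced by interferon, were nearest to Isg15, and Gbp5 (0.543), a guanylate-binding protein, and Mx1 (0.733) to Usp18. Uba7 was nearest to Eif2ak2 (0.282), the RNA-dependent kinase PKR, and Dtx3l (0.298). Ube2l6 was nearest to Tor3a (0.247) and Bst2 (0.253), the membrane protein tetherin, and Herc6 to Trim30d (0.230) and Trim30a (0.252). Among the members themselves Ube2l6 and Herc6 were most alike (0.471), then Uba7 and Ube2l6 (0.523) and Uba7 and Herc6 (0.639), while Isg15 and Uba7 were farthest apart (2.98). By this measure the 3 conjugating enzymes had profiles close to each other, and Usp18 and Isg15, 1.62 apart, were farther from each other and from Uba7. These distances depend on the size of the rise and on the added 1. The added 1 shrinks the rise of a gene near 1 FPKM at rest, as Herc6 was. By the edgeR log2 fold change Herc6 rose more than Ube2l6, by 4.75 against 3.35 in WT-labelled BMDCs and 6.09 against 3.98 in WT-labelled BMDMs. Uba7 rose by 2.99 and 4.63 in these sets.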

How the data were processed

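PolyA RNA of 24 mouse libraries was sequenced by the study, and 1 gene table was deposited. Raw counts per gene in that table were made by the authors with featureCounts 1.5.0-p3 from reads aligned with HISAT2 2.0.5 to GRCm38 after fastp trimming, per the labels' processing notes. FPKM values were deposited by the authors for the same genes and libraries, and the library sizes they imply were 0.687 to 1.33 times the total counts of 15657347 to 18912887, which limit counts of few reads most. Columns of the authors' own comparisons (mean counts, fold changes and p-values) were not used. All 48 per-library columns were matched to samples by title.

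Counts were tested with edgeR 4.0.16 (TMM scaling, quasi-likelihood test) in R 4.3.3, in fits over the 12 BMDC, the 8 BMDM (numbers 1 and 2) and these 20 libraries together, on genes with at least 1 FPKM in at least 3 libraries, with Benjamini-Hochberg adjustment over all genes tested and a threshold of 0.05. The edgeR scripts were tested on simulated data. The study used DESeq2 1.20.0, and DESeq2 1.42.0 and limma 3.58.1 on log2(FPKM + 1) and log2(FPKM + 0.1) were alternatives, with other scalings, filters, replicate blocks and left-out libraries. Intervals are 95% and unadjusted, from the SE and the t distribution at the degrees of freedom of the edgeR fit (11.3 in BMDCs and 6.93 in BMDMs). Each of the 5 members, the related lists and the 2 genes nearest to each member were named by rule. Members and lists were chosen with earlier results of these data known. Some genes of the related lists are not reported here, and counts over the lists that hold them are left out.

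In BMDCs the same replicate number paired control with DMXAA libraries within a label (correlation of deviations from group means 0.417 to 0.692 over 6 pairs) but not across labels (−0.514 to 0.0325), as seen in the data and not stated in the labels. In BMDMs, with 2 libraries a group, pairing could not be established (0.0392 to 0.611).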

Additional observations from a re-analysis of the deposited data

Results flagged for a closer look

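A difference between groups in the response itself was called for Uba7 between the labels in BMDMs and for Usp18 between the cell types. Each was 1 of 5 members in its comparison, with backgrounds of 4.22% and 2.99% of genes. The genotype by DMXAA interaction of Uba7, the ISG15 E1, was −1.2835 on the log2 scale in BMDMs (edgeR, adjusted p = 0.037), with a rise of 4.63 under the WT and 3.35 under the CRE label and higher treated levels in both WT-labelled than in both CRE-labelled libraries. The cell type by DMXAA interaction of Usp18, the ISG15 protease, was −2.2078 with the WT label (edgeR, adjusted p = 0.019), with control levels of 4.62 to 7.50 FPKM in BMDCs and of 0.895 and 1.72 FPKM in BMDMs. Neither call held under every setting. That of Uba7 was lost with dispersions from WT-labelled BMDMs only (edgeR, adjusted p = 0.41), and that of Usp18 with all 24 libraries (−1.58). Both were also lost in some fits that left out 1 library, as given above.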

How the results depend on the processing

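The DMXAA responses of single members kept direction and call in 400 of 400 alternatives other than those with all 12 BMDM libraries, with log2 fold changes of 2.63 to 9.985. Part of this tally was fixed by the filter. Usp18 and Herc6 in BMDMs passed it only through treated libraries. At a minimum of 5 FPKM so did Isg15 and Herc6 in BMDCs, with controls of at most 3.54 and 1.77 FPKM. At that minimum Isg15 and Uba7 in BMDMs did so as well. The BMDM controls of Uba7 were at most 4.71 FPKM, and of those of Isg15 only WT-labelled replicate 2 (13.5 FPKM) exceeded 5 FPKM. With no low-value filter Usp18 and Herc6 still rose in WT-labelled BMDMs, by 8.67 and 6.09. With all 12 BMDM libraries edgeR called 0 members in each BMDM comparison, DESeq2 5 in the WT-labelled and 4 in the CRE-labelled response, and edgeR with a within-label replicate block added, 3 in the WT-labelled and 2 in the CRE-labelled response and 0 for the interaction. Between the labels under DMXAA in BMDMs 3 were called with only the groups compared or scaling by library totals, 0 with the dispersions of WT-labelled BMDMs or with DESeq2 on all 12, and 0 to 5 when 1 library was left out. In control BMDMs the count was 2 with no low-value filter and 0 to 1 when 1 library was left out. For the BMDM interaction it was 2 with median-of-ratios scaling, an FPKM minimum of 5 or limma on log2(FPKM + 0.1), 3 with no filter, limma on log2(FPKM + 1) or the within-label replicate block, 4 with DESeq2, 0 with WT-labelled dispersions or with DESeq2 on all 12, and 0 to 4 when 1 library was left out. Leaving out a BMDM library leaves an arm of 1, assumed to vary like the others. For BMDCs against BMDMs the control count was 1 with all 24 libraries and 1 to 3 when 1 was left out. The treated count was 1 with only the groups compared or the replicate block, 0 with library totals or all 24, and 0 to 3 when 1 was left out. The cell type interaction count was 4 with no filter, 2 with DESeq2, 0 with all 24 and 0 to 2 when 1 was left out. The cause of these changes was not tested.

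Signs changed only for estimates that were not called in the fits reported above. For the labels in DMXAA-treated BMDCs, Usp18 was at −0.0002 with median-of-ratios scaling and with DESeq2, −0.006 with no filter and −0.005 with limma at either pseudocount. Uba7 was at −0.0072 with no filter, −0.0544 and −0.0577 with limma and −0.0365 with the replicate block, and Herc6 at 0.0038 with library totals. In control BMDCs Herc6 was at −0.0028 and −0.013 with limma. Between treated BMDCs and BMDMs Usp18 was at 0.1681 with library totals, and Isg15 at 0.0192 and Usp18 at 0.4613 with all 24. Leaving out 1 library gave, for the labels in treated BMDCs, −0.1328 to 0.108 for Usp18, −0.2989 to 0.2881 for Uba7, −0.1576 to 0.0624 for Ube2l6 and −0.1644 to 0.1279 for Herc6. In control BMDCs it gave −0.2787 to 0.1707 for Isg15, −0.4266 to 0.1541 for Uba7, −0.0458 to 0.2283 for Ube2l6 and −0.2566 to 0.1775 for Herc6, and for the BMDC interaction −0.3213 to 0.1325 for Isg15, −0.1549 to 0.4384 for Uba7 and −0.1935 to 0.2329 for Herc6. The range was −1.559 (called, without WT-labelled control replicate 2) to 0.1188 for the BMDM interaction of Isg15 and −0.1745 to 0.1508 for Usp18 between treated BMDCs and BMDMs. A replicate block within label changed no call in BMDCs.

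Over all genes, library totals gave 1286 higher and 5464 lower with DMXAA in WT-labelled BMDMs, against 2041 and 2374 in the edgeR fit, and 2106 higher and 795 lower between the labels under DMXAA, against 1060 and 1130.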
